A study of Rattus norvegicus with 43 samples.

Results

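The genes described here encode the machinery that brings secretory proteins into the endoplasmic reticulum (ER), folds them, attaches sugars to them and removes those that fail to fold. Of 48 genes listed for these roles, 46 had a probe set named for them alone, out of 14217 genes named in this way on the array. Ern1, a sensor of ER stress, and Srp54, a signal recognition particle subunit, had none under these symbols and have no value here. A gene with the symbol Srp54a was on the array and was tested among the related genes described below. The 46 genes were 13 folding chaperones, 6 genes of oxidative folding and 3 stress sensors or their factors (Atf6, Eif2ak3 and Xbp1). The others were 13 genes of translocation, 4 of N-glycosylation and 7 of quality control.

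Gene expression was measured on 43 arrays, 1 per animal, of anterior pituitary gland from F2 males descended from Copenhagen (COP) females and ACI males. All animals were treated alike, with an implant holding 5 mg of diethylstilbestrol (DES), a synthetic estrogen, placed at 9 weeks of age and left for 12 weeks. They were sacrificed at 21 weeks of age, 4 hours after bromodeoxyuridine (BrdU, 50 mg/kg), which marks dividing cells. By the design text they were taken from both ends of the distribution of pituitary weight, 22 from the top and 21 from the bottom, but no label gives the class of an animal. All animals therefore formed 1 group, no untreated animal was measured, and each question asked here is how the ER genes varied between animals.

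Secretory proteins enter the ER through the Sec61 channel while they are being made, lose their signal peptide, receive N-linked sugars and fold with the help of chaperones and disulfide isomerases. Proteins that do not fold are drawn back out and degraded. Unfolded protein in the ER activates the sensors Ern1, Atf6 and Eif2ak3, which raise the transcription of chaperone and degradation genes. Lactotrophs, the pituitary cells that respond to estrogen with growth and prolactin secretion, depend on this machinery for their hormone.

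The response to unfolded protein is known to act through short promoter elements, so the sequence from 250 bases before to 50 bases after the annotated start was searched for 4 of them, on both strands. The windows came from RefSeq (build GRCr8), which held 39 of the 46 genes and 33469 promoters in all. The ER stress response element, searched as CCAAT, 9 bases of any kind and CCACG, was present in 8 of the 39 promoters and in 0.0657% of all promoters. Among the 8 genes were Hspa5, Hsp90b1, Calr, Dnajc3, Creld2, Ero1b and Xbp1. Its shorter form, searched as ATTGG, 1 base and CCACG, was present in 3 of 39, Dnajb11, Hyou1 and Herpud1, and in 0.0508% of all promoters. The Xbp1 site TGACGTGG was found in Hyou1, where it overlapped the short form, and in Vcp (2 of 39 against 0.595% of all), and the Atf4 site TTGCATCA in Herpud1 (1 of 39 against 0.795%). Of 98 promoters of other genes of the pathway, named below as related genes, 0 held either form of the ER stress element, 5 held the Xbp1 site and 3 the Atf4 site. A match describes the letters of these windows and is no evidence of binding. Sites of some of these genes are shown because the response to unfolded protein is known to act through them, read along the gene's own strand, with the searched letters in capitals. Where the element lay on the opposite strand, the capitals read CGTGG and ATTGG for the long form and CGTGG and CCAAT for the short form.
Hspa5 (chr3:38452963-38453001, plus strand): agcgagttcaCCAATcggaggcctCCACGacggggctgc
Hsp90b1, first site (chr7:23012441-23012479, minus strand): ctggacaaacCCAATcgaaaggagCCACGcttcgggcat
Hsp90b1, other site (chr7:23012337-23012375, minus strand): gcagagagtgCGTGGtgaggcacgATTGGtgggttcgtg
Calr (chr19:40213125-40213163, plus strand): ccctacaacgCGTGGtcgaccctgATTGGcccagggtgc
Dnajc3 (chr15:102432524-102432562, plus strand): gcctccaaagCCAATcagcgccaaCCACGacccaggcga
Xbp1 (chr14:84604548-84604586, plus strand): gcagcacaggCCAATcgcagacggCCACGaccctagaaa
Herpud1, short form (chr19:10614811-10614841, minus strand): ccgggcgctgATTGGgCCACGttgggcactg
Herpud1, Atf4 site (chr19:10614874-10614901, minus strand): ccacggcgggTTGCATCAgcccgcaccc
Hyou1, short form (chr8:53602684-53602714, plus strand): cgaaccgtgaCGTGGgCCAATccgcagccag

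All levels below are log2(intensity + 16) of the deposited intensities, and each gene is represented by its brightest probe set. All 46 genes passed a filter that kept probe sets with a mean log2 level above 7.16, the median of the array. Brightness is not calibrated between probe sets, so levels of different genes do not rank their transcripts. Of 36 cell type markers examined, 33 were named on the array and 24 passed the filter. Prl, the hormone of lactotrophs, had a level of 15.61 ± 0.14 (SD, n = 43), Gh1 of somatotrophs 14.97 ± 0.41, and the posterior lobe markers Avp, Oxt and Gfap did not pass. Animal 43 correlated least with the remaining arrays (mean r 0.927, where every other animal had 0.967 to 0.976) and had the largest difference between the 3' and 5' probe sets of actin (1.97 against 1.26 to 1.67) and GAPDH (0.453 against 0.0455 to 0.292). It gave the highest value of 13 of the 46 genes and the lowest of 10. Animal 38, which had the lowest Mki67 level, gave the highest value of 3 and the lowest of 6. The share of all probe sets that were highest or lowest in these animals was not counted, so these counts do not set the ER genes apart. Counts of ER gene calls that rest on these animals are given with and without them. Counts of the markers and the related genes are given for all animals only. In whole glands, fewer cells of a type and less RNA per cell cannot be told apart.

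**Figure D1:**
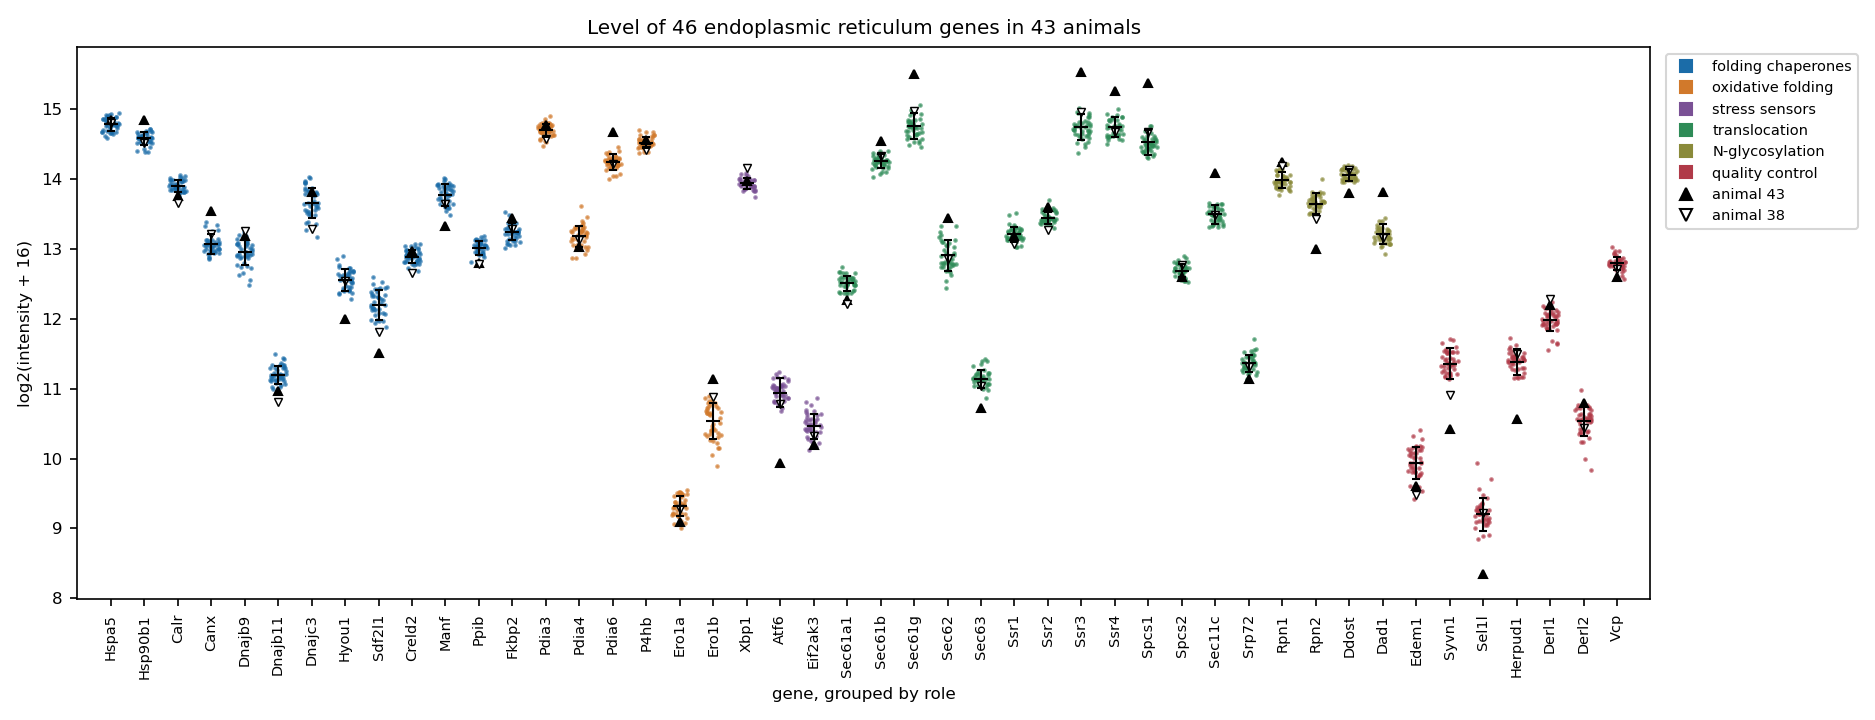
Level (y axis, log2 of intensity + 16) of 46 ER genes (x axis, grouped and coloured by role) in 43 animals (points), with the mean and SD (bars). Animal 43 (triangle) lay above all other animals for Ssr3, Spcs1 and Sec61g and below all others for Atf6, Syvn1 and Sel1l. Levels of different genes cannot be compared.

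Matched for level, 28 of the 46 ER genes varied less between animals than the median probe set. The median SD of the 46 genes was 0.142, against 0.233 for all 15521 probe sets that passed, and since bright probe sets vary less, each SD was also ranked among the 200 probe sets nearest in level. The median rank of the genes was the 40.25th percentile, and the median of all probe sets was 50. None of the 46 lay above the 90th percentile, where 9.89% of all probe sets lay. At or below the 10th percentile were 13 of the 46 genes, against 10.5% of all probe sets. No test was made of these ranks.

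Among the folding chaperones, Hspa5 (BiP), the main Hsp70 chaperone of the ER, ranged from 14.60 (animal 5) through a median of 14.79 to 14.95 (animal 17), a ratio of 1.28 between highest and lowest, and its SD of 0.09 lay at the 9th percentile. Hsp90b1 (GRP94), an Hsp90 of the ER, ranged from 14.39 to 14.85 with a median of 14.59, and Calr (calreticulin), a lectin chaperone, from 13.66 to 14.07 with a median of 13.89. Both were as narrow, at the 10th and 7.5th percentile. The highest Hsp90b1 was animal 43, and the next highest animal had 14.73. Creld2, a chaperone induced by ER stress, and Ppib, the prolyl isomerase cyclophilin B, lay at the 8.5th and 6.5th percentile. The widest chaperones were Dnajc3, a co-chaperone that delivers unfolded protein to Hspa5, and Sdf2l1, which works beside the co-chaperone Dnajb11. Dnajc3 ranged from 13.17 through 13.65 to 14.03 (84th percentile) and Sdf2l1 from 11.51 through 12.20 to 12.60 (77th percentile). The lowest Sdf2l1 was animal 43, and the next lowest, animal 38, had 11.81. The remaining chaperones lay between the 25th and 62nd percentile: Canx (calnexin), the membrane-bound partner of Calr, the co-chaperones Dnajb9 and Dnajb11, Hyou1, an exchange factor of Hspa5, Manf, a secreted ER stress protein, and Fkbp2, a prolyl isomerase.

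In oxidative folding, both the narrowest gene of all and the second widest were found. P4hb, protein disulfide isomerase itself, ranged from 14.38 through 14.52 to 14.70 and had the lowest rank of all 46 genes, at the 1.5th percentile. Pdia3, the isomerase that works with the lectin chaperones, ranged from 14.48 through 14.70 to 14.91 (8.5th percentile). Pdia6, another isomerase, ranged from 14.01 through 14.24 to 14.67, with animal 43 highest and the next animal at 14.47 (32nd percentile), and Pdia4 lay at the 54th. Of the oxidases that recharge the isomerases, Ero1a lay at the 5th percentile and Ero1b at the 83rd, and Ero1b ranged from 9.89 (animal 36) through 10.58 to 11.13 (animal 43), a ratio of 2.37, with the next highest animal at 10.90. Over the 43 animals r between Ero1a and Ero1b was -0.281. Both probe sets of Ero1a passed and had r = 0.109 with each other, and the other probe set of Ero1b did not pass the filter.

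Of the stress sensors and their factors, Xbp1, the transcription factor activated through Ern1, was the narrowest, from 13.74 through 13.94 to 14.17 (2nd percentile). These levels do not separate the spliced from the unspliced Xbp1 transcript. Eif2ak3, the kinase that slows translation under ER stress, ranged from 10.12 through 10.45 to 10.87 (49.5th percentile). Atf6, a membrane-bound transcription factor released under stress, ranged from 9.93 through 10.97 to 11.24 (69.5th percentile). Its lowest value was animal 43, and the next lowest animal had 10.68, so that its SD fell from 0.21 to 0.13 without animal 43.

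In translocation the subunits of the same complexes differed in spread. The channel subunits Sec61a1, which forms the pore, and Sec61b, a small partner, lay at the 11.5th and 15th percentile. Sec61a1 ranged from 12.21 (animal 38) through 12.52 to 12.74 (animal 13). Sec61g, the other small subunit, ranged from 14.46 through 14.75 to 15.51, with animal 43 highest and the next animal at 15.06 (78th percentile). Of the 4 subunits of the TRAP complex, which assists the channel, Ssr2 and Ssr1 lay at the 4th and 11.5th percentile and Ssr4 and Ssr3 at the 59th and 81st. Ssr3 ranged from 14.38 (animal 14) through 14.75 to 15.53 (animal 43), and the next animal had 15.02. Of the signal peptidase subunits, Spcs2 lay at the 5.5th, Sec11c at the 40th and Spcs1 at the 73rd percentile. Spcs1 ranged from 14.30 through 14.50 to 15.38 (animal 43), the next animal had 14.77, and without animal 43 its SD fell from 0.17 to 0.11. Sec62 and Sec63, which serve proteins that enter after synthesis, lay at the 79th and 17.5th percentile, and Srp72, of the signal recognition particle, at the 20.5th.

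The 4 subunits of the oligosaccharyltransferase, which transfers N-linked sugars, lay between the 6th percentile (Ddost) and the 47.5th (Rpn2). Rpn2 ranged from 13.01 (animal 43) through 13.66 to 14.00 (animal 13), with the next lowest animal at 13.43. Rpn1 ranged from 13.78 through 13.97 to 14.25, with animal 43 highest, and Dad1 from 12.92 through 13.19 to 13.82, also with animal 43 highest and the next animal at 13.44. Animal 43 was thus at opposite ends for subunits of 1 enzyme.

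Quality control had the highest median rank of the 6 roles, the 63.5th percentile. Syvn1, the ubiquitin ligase (Hrd1) of ER-associated degradation, ranged from 10.43 (animal 43) through 11.37 to 11.71, with the next lowest animal at 10.91 (81.5th percentile). Sel1l, its partner, ranged from 8.34 (animal 43) through 9.21 to 9.93 (animal 22), a ratio of 3.00 (62nd percentile). The next lowest animal had 8.85. Edem1, which marks glycoproteins for removal, ranged from 9.42 (animal 32) through 9.94 to 10.41 (animal 22). Herpud1, an ER membrane protein of the same pathway, ranged from 10.56 (animal 43) through 11.41 to 11.73, with the next lowest at 11.15. Derl1 and Derl2, membrane components of the exit path, lay at the 44.5th and 66th percentile, and Vcp, the ATPase that extracts proteins, was the exception, at the 6th percentile.

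**Figure D2:**
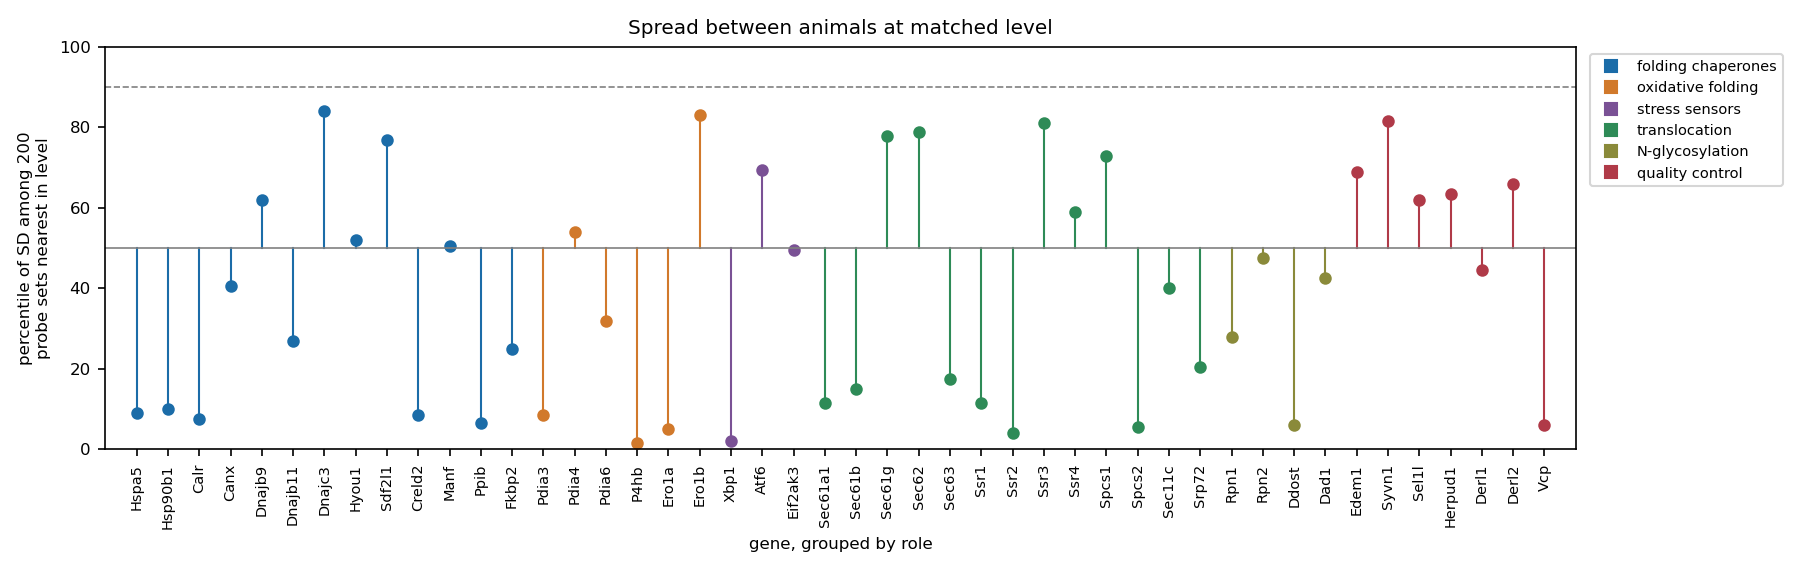
Percentile of each gene's SD (y axis) among the 200 probe sets nearest in mean level, for 46 ER genes (x axis, coloured by role), over 43 animals. The solid line marks the 50th and the dashed line the 90th percentile. No gene lay above the dashed line, and Xbp1, P4hb and Ssr2 lay at or below the 4th percentile.

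Because the animals were an F2 cross, in which alleles near a gene can split its values, each gene was examined for 2 classes of animals (Bayesian information criterion lower by more than 10 than for 1 class, with at least 5 animals in each class). None of the 46 genes met this description, which 0.348% of all probe sets met.

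Over all 1035 pairs of the 46 genes the median r was 0.102, against 0.0075 over all pairs of probe sets that passed, and 60.3% of the pairs had r above 0. Without animals 38 and 43 the median was 0.115. When the median of each array was subtracted, it was 0.287 against 0.0325. The medians of the arrays differed from their mean by -0.11 to 0.07, and 41 of the 46 genes had r below 0 with them, against 43.8% of all probe sets. These r are descriptions with no test, and pairs share animals and arrays. By mean level 34 of the 46 genes lay in the top 5 percent of probe sets. Neither this baseline nor the shares and medians of all probe sets given below were matched for level.

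Several translocation genes formed a block that held many of the highest correlations. Outside it, Sdf2l1 and Manf had r = 0.837, and 0.792 without animals 38 and 43. Without those animals this was above every pair of the block listed here. Sec61g and Spcs1 had r = 0.882 (0.775 without animals 38 and 43), Ssr3 and Spcs1 0.867 (0.738), Sec61g and Ssr3 0.832 (0.690), Sec61b and Sec61g 0.819 (0.761), and Ssr4 and Sec11c 0.792 (0.674). The isomerase Pdia6 varied with the same genes, with r = 0.756 (0.629) with Spcs1 and 0.751 (0.679) with Sec61b, and its median r with the other 45 genes was the highest of all, at 0.307. The median over the 78 pairs within translocation was 0.226, and over the 91 pairs of translocation with quality control -0.122.

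Subunits of 1 complex did not always vary together. The pore Sec61a1 had r = -0.344 with Sec61b and -0.374 with Sec61g, and -0.181 and -0.121 without animals 38 and 43. Rpn1 and Rpn2, both subunits of the oligosaccharyltransferase, had r = -0.542 (-0.361), whereas Rpn2 and Ddost had 0.557 (0.424). Spcs1 and Spcs2 of the signal peptidase had r = -0.125 (-0.038). Within TRAP all pairs were above 0, from 0.292 for Ssr2 and Ssr3 to 0.690 for Ssr3 and Ssr4.

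Outside translocation, Sdf2l1 and Manf had r = 0.837 (0.792 without animals 38 and 43) and Sdf2l1 and Ppib 0.722 (0.637). Dnajb9, a co-chaperone of degradation, and Derl1 had 0.801 (0.774), and Derl1 and Derl2 0.669 (0.716). Hsp90b1 and Dad1 had 0.746 (0.668). Hspa5 had r = 0.543 (0.563) with Hsp90b1 but 0.012 (0.082) with Manf, 0.019 (0.021) with Creld2 and -0.233 (-0.204) with Hyou1, which also act in folding. Over the 43 animals its median r was 0.022 with the 12 other chaperones and 0.249 with the 6 genes of oxidative folding. The highest of these r were 0.643 with Pdia6 and 0.622 with Pdia3.

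The lowest correlations joined the translocation block with degradation and with Rpn2, and most shrank without animals 38 and 43. Spcs1 and Syvn1 had r = -0.741 (-0.433), Sec61g and Rpn2 -0.714 (-0.448), Atf6 and Spcs1 -0.688 (-0.187), and Spcs1 and Herpud1 -0.680 (-0.351). Animal 43 was high for Spcs1 and Sec61g and low for Syvn1, Rpn2, Atf6 and Herpud1.

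**Figure D3:**
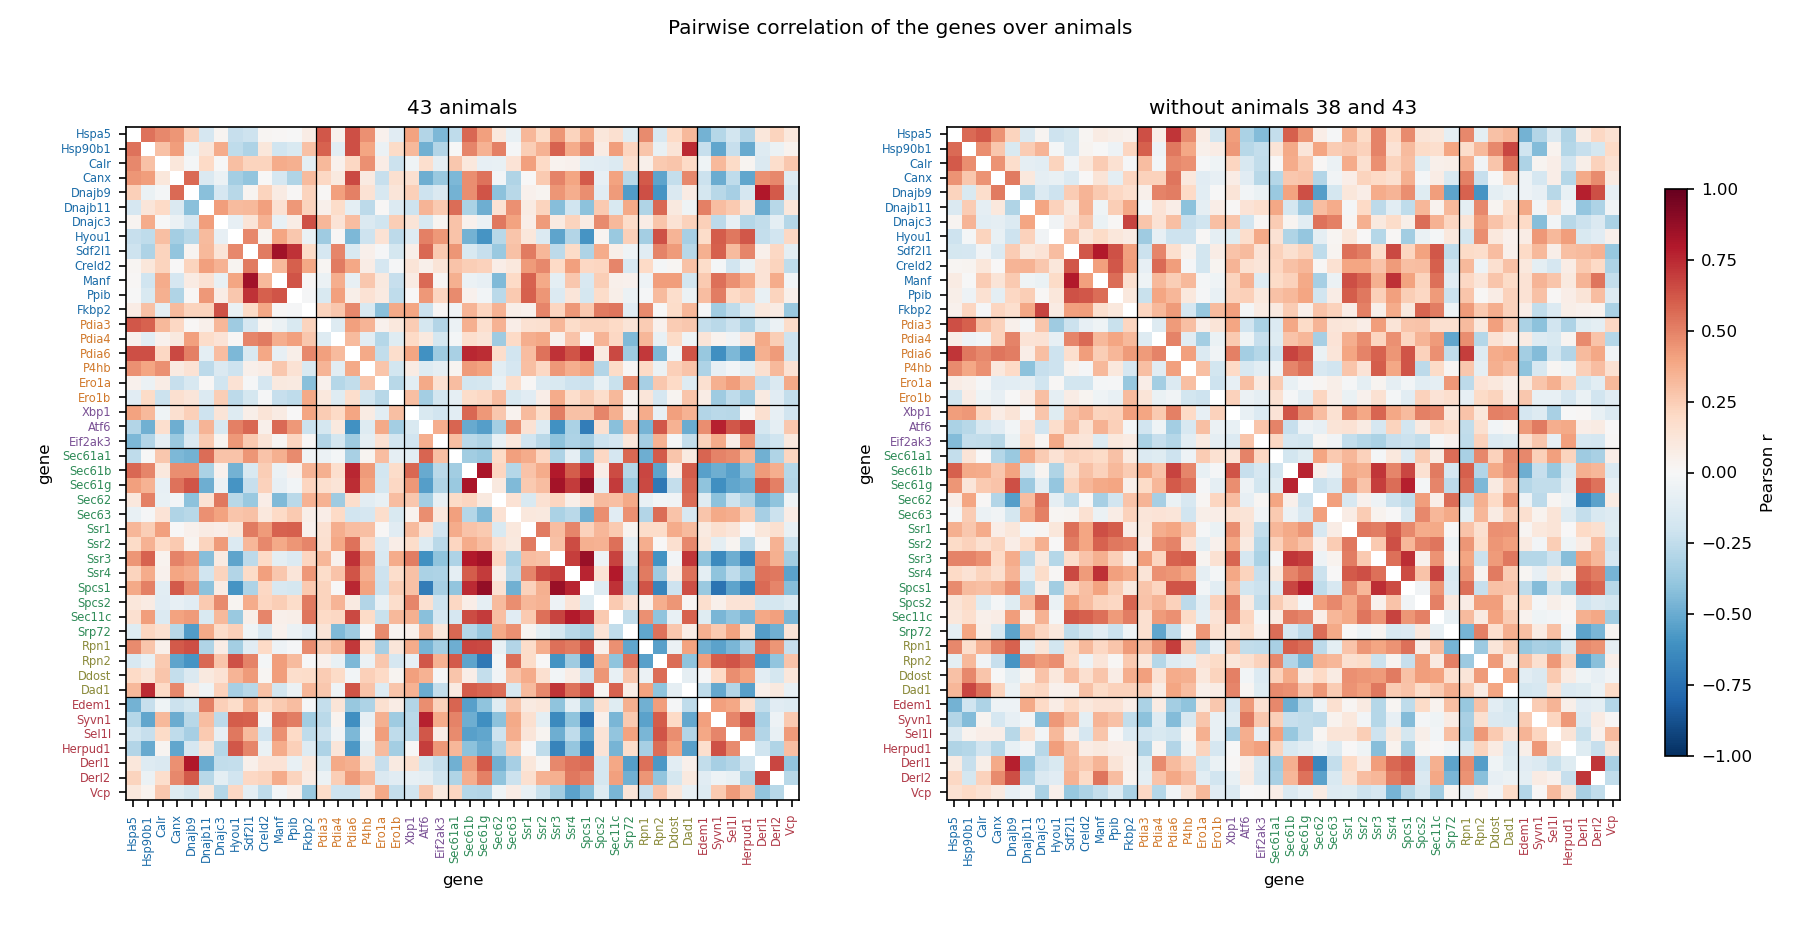
Pearson r (colour) between each pair of 46 ER genes over 43 animals (left) and over 41 animals without animals 38 and 43 (right), with genes grouped by role and roles divided by lines. The block of Sec61b, Sec61g, Ssr3, Ssr4, Spcs1, Sec11c and Pdia6 was present in both panels, and the blue fields between that block and Atf6, Syvn1, Herpud1 and Rpn2 were paler on the right.

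The next question was which ER genes varied with prolactin, the main secreted product of lactotrophs. Prl ranged from 15.40 (animal 15) through 15.63 to 16.14 (animal 43), and the next animal had 15.79. By limma, with Benjamini-Hochberg adjustment over 15520 probe sets and a threshold of 0.05, 12 of 46 ER genes were higher where Prl was higher and 6 were lower, against 7.82% and 11.3% of all probe sets. The median r of the 46 genes with Prl was 0.138, and that of all probe sets tested was -0.061. Of 13 translocation genes, 5 were higher (Ssr3, Spcs1, Sec61g, Sec61b and Ssr4) and 0 lower, and all 5 had r below 0 after quantile normalization. Of 13 chaperones, Hsp90b1, Hspa5 and Canx were higher and Sdf2l1 lower, with the signs of Canx and Sdf2l1 reversed after quantile normalization, and of 6 genes of oxidative folding, Pdia6 and Pdia3 were higher. Dad1 and Rpn1 of N-glycosylation were higher, but below 0 after quantile normalization. Of 7 quality control genes, 0 were higher and 4 lower (Syvn1, Herpud1, Edem1 and Sel1l), of which all but Edem1 were above 0 after quantile normalization. Of Atf6, Eif2ak3 and Xbp1, Atf6 was lower, and it too was above 0 in that setting. Prl had the same value on 28 of the 43 arrays there. These signs therefore do not compare those arrays with each other and cannot decide the direction.

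Most of these calls rested on animal 43: without it, 2 of 46 were called, Ssr3 and Hspa5, both higher, against 0.522% of all probe sets, and without animals 38 and 43 these and Pdia3, against 0.490%. With the 3' to 5' differences of actin and GAPDH in the model 2 were called, Ssr3 and Spcs1, against 0.535% of all probe sets. Prl itself had r = 0.458 with the actin difference and 0.550 with that of GAPDH, and their part in the result was not tested. With ranks in place of levels 7 genes were called, all of them higher, against 0.876%. After quantile normalization none was called by limma (8 had an unadjusted p under 0.05), and 13 of the 18 changed sign. How many of all probe sets had such an unadjusted p was not counted, so the 8 cannot be set against a share. On 28 of the 43 arrays no probe set was brighter than that of Prl, and quantile normalization gives the brightest probe set the same value on every array.

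Ssr3 was called against Prl in 13 of 14 alternative settings, quantile normalization being the exception with r = -0.188, and Hspa5 in 12. The exceptions for Hspa5 were quantile normalization (r = 0.493, adjusted p = 0.599 by limma) and array quality (r = 0.623, adjusted p = 0.0509). For Ssr3 the slope was 1.05 ± 0.15 (SE) log2 units per log2 unit of Prl, with adjusted p = 2.88e-06 by limma, r = 0.767 and rho = 0.658. Permutation p was 1e-05 for both, the smallest that 100000 permutations can give. Its r was 0.621 without animals 15 and 43, the farthest from the median of Prl. All 3 probe sets of Ssr3 varied together, with r = 0.654 and 0.821 between the brightest and the others. Other genes called against Prl had probe sets that did not vary together: r with the brightest was -0.105 for Pdia3, 0.311 for Atf6, and 0.762 and -0.273 for Canx. With the mean of all probe sets of each gene Pdia3, Canx and Edem1 were not called. For Hspa5 the slope was 0.42 ± 0.10, with adjusted p = 0.00473 by limma, r = 0.631 and rho = 0.691 (permutation p = 1e-05 for both). Its r was 0.690 without animals 15 and 43 and 0.709 without animals 38 and 43. Animal 43, highest for Prl, had an Hspa5 level of 14.85, within the range of the other animals.

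The other genes with the smallest adjusted p showed how much animal 43 contributed. Spcs1 had r = 0.736 and rho = 0.559 (slope 0.92 ± 0.14 (SE), adjusted p = 2.45e-05 by limma), Hsp90b1 0.693 and 0.565 (0.46 ± 0.10, adjusted p = 0.00166) and Pdia6 0.657 and 0.519 (0.55 ± 0.12, adjusted p = 0.00147). Their r without animals 15 and 43 were 0.555, 0.622 and 0.521. Atf6 had r = -0.659 and rho = -0.406 (slope -0.98 ± 0.18, adjusted p = 0.000323 by limma), and r = -0.401 without the same animals. Syvn1 had r = -0.612 and rho = -0.359, and Herpud1 r = -0.572 and rho = -0.348, which became -0.391 and -0.261. In all, 182 relations of ER genes with 4 measured genes were tested in this way.

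**Figure D4:**
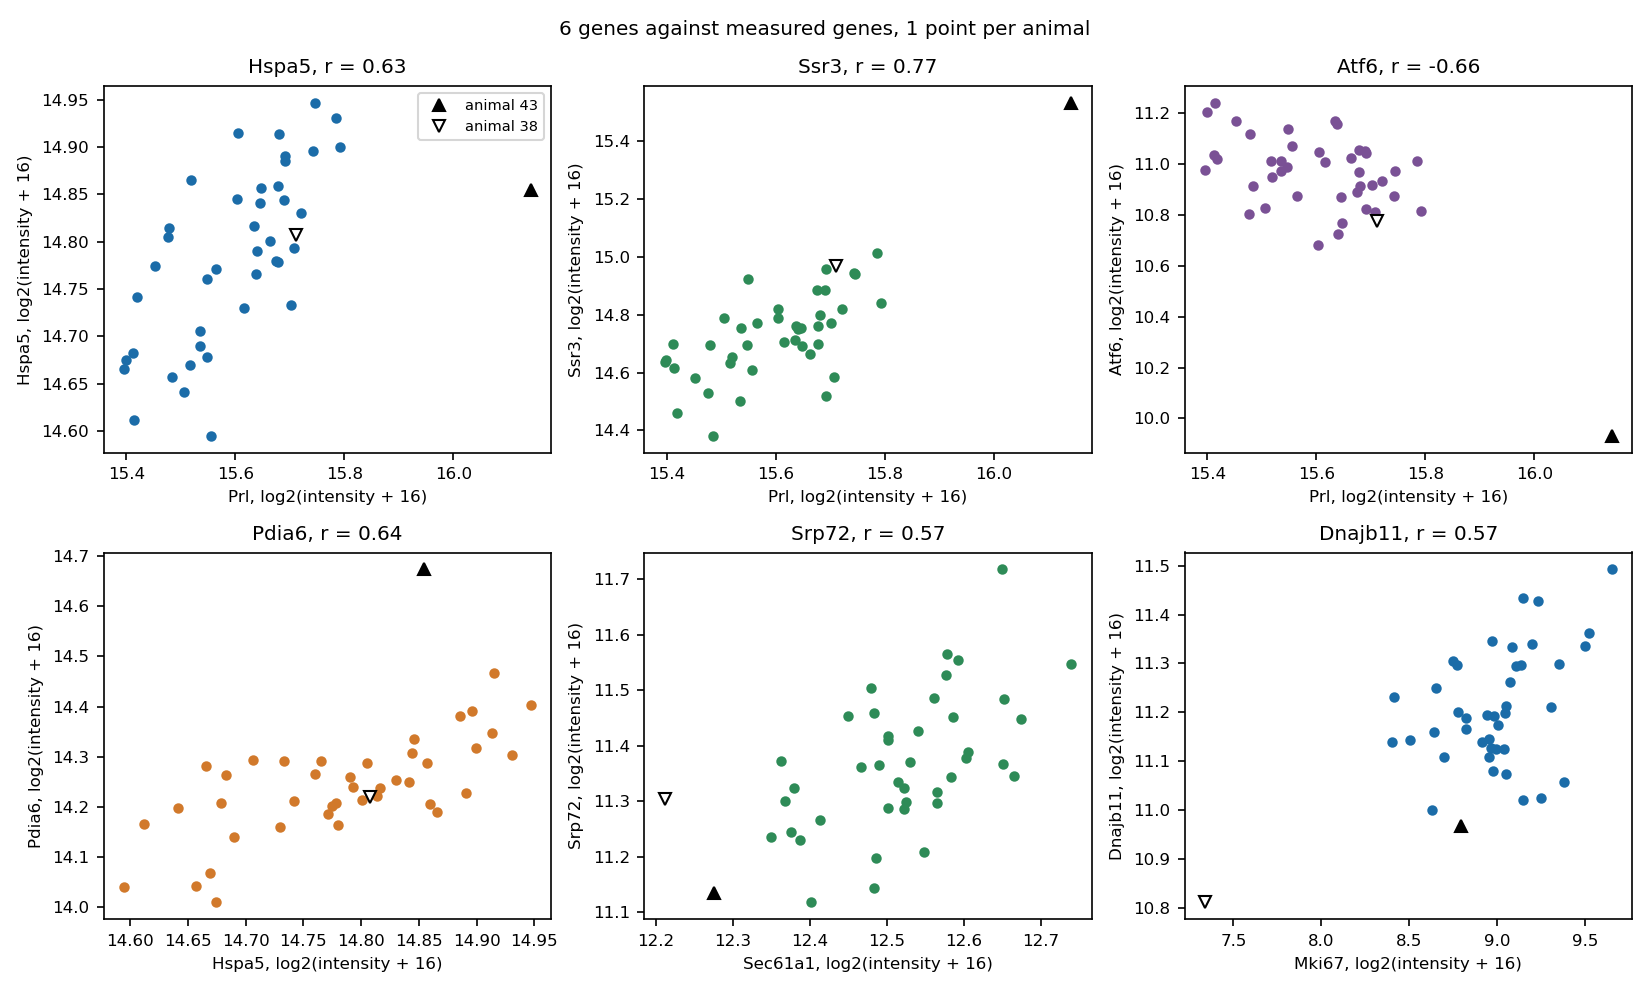
Levels of 6 ER genes (y axes) against Prl, Hspa5, Sec61a1 or Mki67 (x axes), all as log2 of intensity + 16, with 1 point per animal. Animal 43 (triangle) had the highest Prl and lay at the end of the Ssr3 and Atf6 distributions but inside that of Hspa5, and animal 38 (open inverted triangle) had the lowest Mki67 and the lowest Dnajb11.

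Hspa5 was then taken as the measured gene, as a target and main chaperone of the unfolded protein response. Of the other 45 ER genes 1, Pdia6, was higher where Hspa5 was higher and 0 were lower, against 0.309% and 0.238% of all probe sets. The slope of Pdia6 was 0.81 ± 0.18 (SE), with adjusted p = 0.0320 by limma, r = 0.643 and rho = 0.660 (permutation p = 1e-05 for both), and r was 0.604 without animals 22 and 5. Pdia3 followed with r = 0.622 (adjusted p = 0.0517 by limma), Sec61b with 0.574 (0.0696) and Hsp90b1 with 0.543 (0.0995), none past the threshold. The lowest r of the 45 genes were those of Edem1 (-0.473), Eif2ak3 (-0.450), Atf6 (-0.291) and Herpud1 (-0.289). Calr (0.478), Canx (0.440) and Xbp1 (0.399) had r above 0, and none of these genes passed the threshold either. Genes whose promoters held an ER stress element in either form had a median r of 0.0223 with Hspa5 (10 genes, from -0.289 to 0.543) and genes without one 0.138 (28 genes, from -0.473 to 0.574). The median over the 45 genes was 0.106, against -0.024 for all probe sets.

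The count depended on how arrays were scaled. With the array medians subtracted 14 of 45 were called, all higher, against 2.58% of all probe sets in either direction, and with quantile normalization 7, against 8.21%, of which 6 were higher (Vcp, Syvn1, Hsp90b1, Calr, Rpn2 and Pdia3) and Derl1 was lower. Pdia6 was called in 10 of 14 alternative settings and lost its call without the filter (adjusted p = 0.0900 by limma), after quantile normalization (0.230), with a trend over animal numbers (0.158) and with a step between animals 22 and 23 (0.191).

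Sec61a1, the pore subunit of the translocation channel, was the next measured gene. Its level is that of 1 subunit and does not stand for the whole channel: its r was -0.344 with Sec61b and -0.374 with Sec61g. Of the other 45 genes 10 were higher where Sec61a1 was higher and 5 were lower, against 12.4% and 11.3% of all probe sets. With array medians subtracted the split was 20 and 0, against 22.5% of all probe sets in either direction, and with quantile normalization 22 and 4, against 34.0%. The higher genes were Edem1, Syvn1 and Sel1l of quality control, Dnajb11, Sdf2l1 and Ppib of the chaperones, Srp72 and Sec63 of translocation, Rpn2 and Atf6. The lower genes were Dnajb9, Canx, Derl1, Rpn1 and Spcs1. The median r of the 45 genes was 0.206, against 0.013 for all probe sets. The oligosaccharyltransferase subunits Rpn1 and Rpn2 lay on opposite sides.

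Edem1 had the smallest adjusted p against Sec61a1, with a slope of 1.21 ± 0.26 (SE), adjusted p = 0.00107 by limma, r = 0.585 and rho = 0.463. Rpn2 had r = 0.611 and rho = 0.526 (adjusted p = 0.00116 by limma), Atf6 0.579 and 0.524 (0.00137) and Srp72 0.575 and 0.548 (0.00348). Atf6 was called in 13 of 14 alternative settings, Edem1 in 12, and Dnajb11, Rpn2 and Srp72 in 11. Without animal 43 the count was 7 of 45 (5 higher, 2 lower), against 13.7% of all probe sets in either direction, and without animals 38 and 43 it was 4 (Srp72, Edem1, Atf6 and Rpn2), against 8.84%. With a step between animals 22 and 23 only Atf6 was called, against 3.29%, and with the mean of all probe sets of each gene only Dnajb11, against 0.303%. The brightest Sec61a1 probe set had r = 0.540 with the next and -0.129 with the last, which did not pass the filter, and the other probe sets of Edem1 had r of 0.145 and 0.205 with its brightest.

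The cell type markers, which include lactotroph markers, were set against the same genes. Of the 24 that passed, 3 were higher where Sec61a1 was higher (Drd2, Pcsk2 and Mrc1) and 10 lower (Pou1f1, Gh1, Tshb, Trhr, Fshb, Gnrhr, Aldh1a1, Hbb, Alas2 and Dcn), with r from -0.570 to 0.549, against 12.4% and 11.3% of all probe sets. Drd2, Prl and Pou1f1 were listed for lactotrophs. Their part in the result was not tested. Against Hspa5 the marker Prl alone was called, as higher, where 0.309% of all probe sets were higher and 0.238% lower. Against Prl 3 of 23 markers were higher (Pou1f1, Tshb and Hbb) and 2 lower (Drd2 and Pcsk2), where 7.82% and 11.3% of all probe sets were.

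Against Mki67, a gene of dividing cells that ranged from 7.34 (animal 38) through 8.98 to 9.65 (animal 11), 3 of 46 ER genes were higher (Dnajb11, Sec61a1 and Edem1) and 1, Derl1, was lower, against 2.98% and 3.12% of all probe sets. Dnajb11 had a slope of 0.20 ± 0.05 (SE), adjusted p = 0.0128 by limma, r = 0.566 and rho = 0.400, and r = 0.307 without animals 11 and 38. Sec61a1 had r = 0.557 and rho = 0.501 (adjusted p = 0.0218 by limma), Edem1 0.487 and 0.450 (0.0255) and Derl1 -0.472 and -0.401 (0.0417). Without animals 11 and 38 these r were 0.402, 0.419 and -0.304. Without animal 38 alone, which was lowest for Dnajb11 and Sec61a1 and highest for Derl1, none of the 46 was called by limma (10 had an unadjusted p under 0.05), against 1.78% of all probe sets. With the trend over animal numbers or the step between animals 22 and 23 none was called either (11 and 8 had an unadjusted p under 0.05), against 0.979% and 0.902%. These percentages are shares called by adjusted p. The share of all probe sets with an unadjusted p under 0.05 was not counted, so the unadjusted counts have no baseline. Among the markers Mrc1 was higher and Tshb, Fshb, Aldh1a1 and Hbb were lower where Mki67 was higher.

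**Figure D5:**
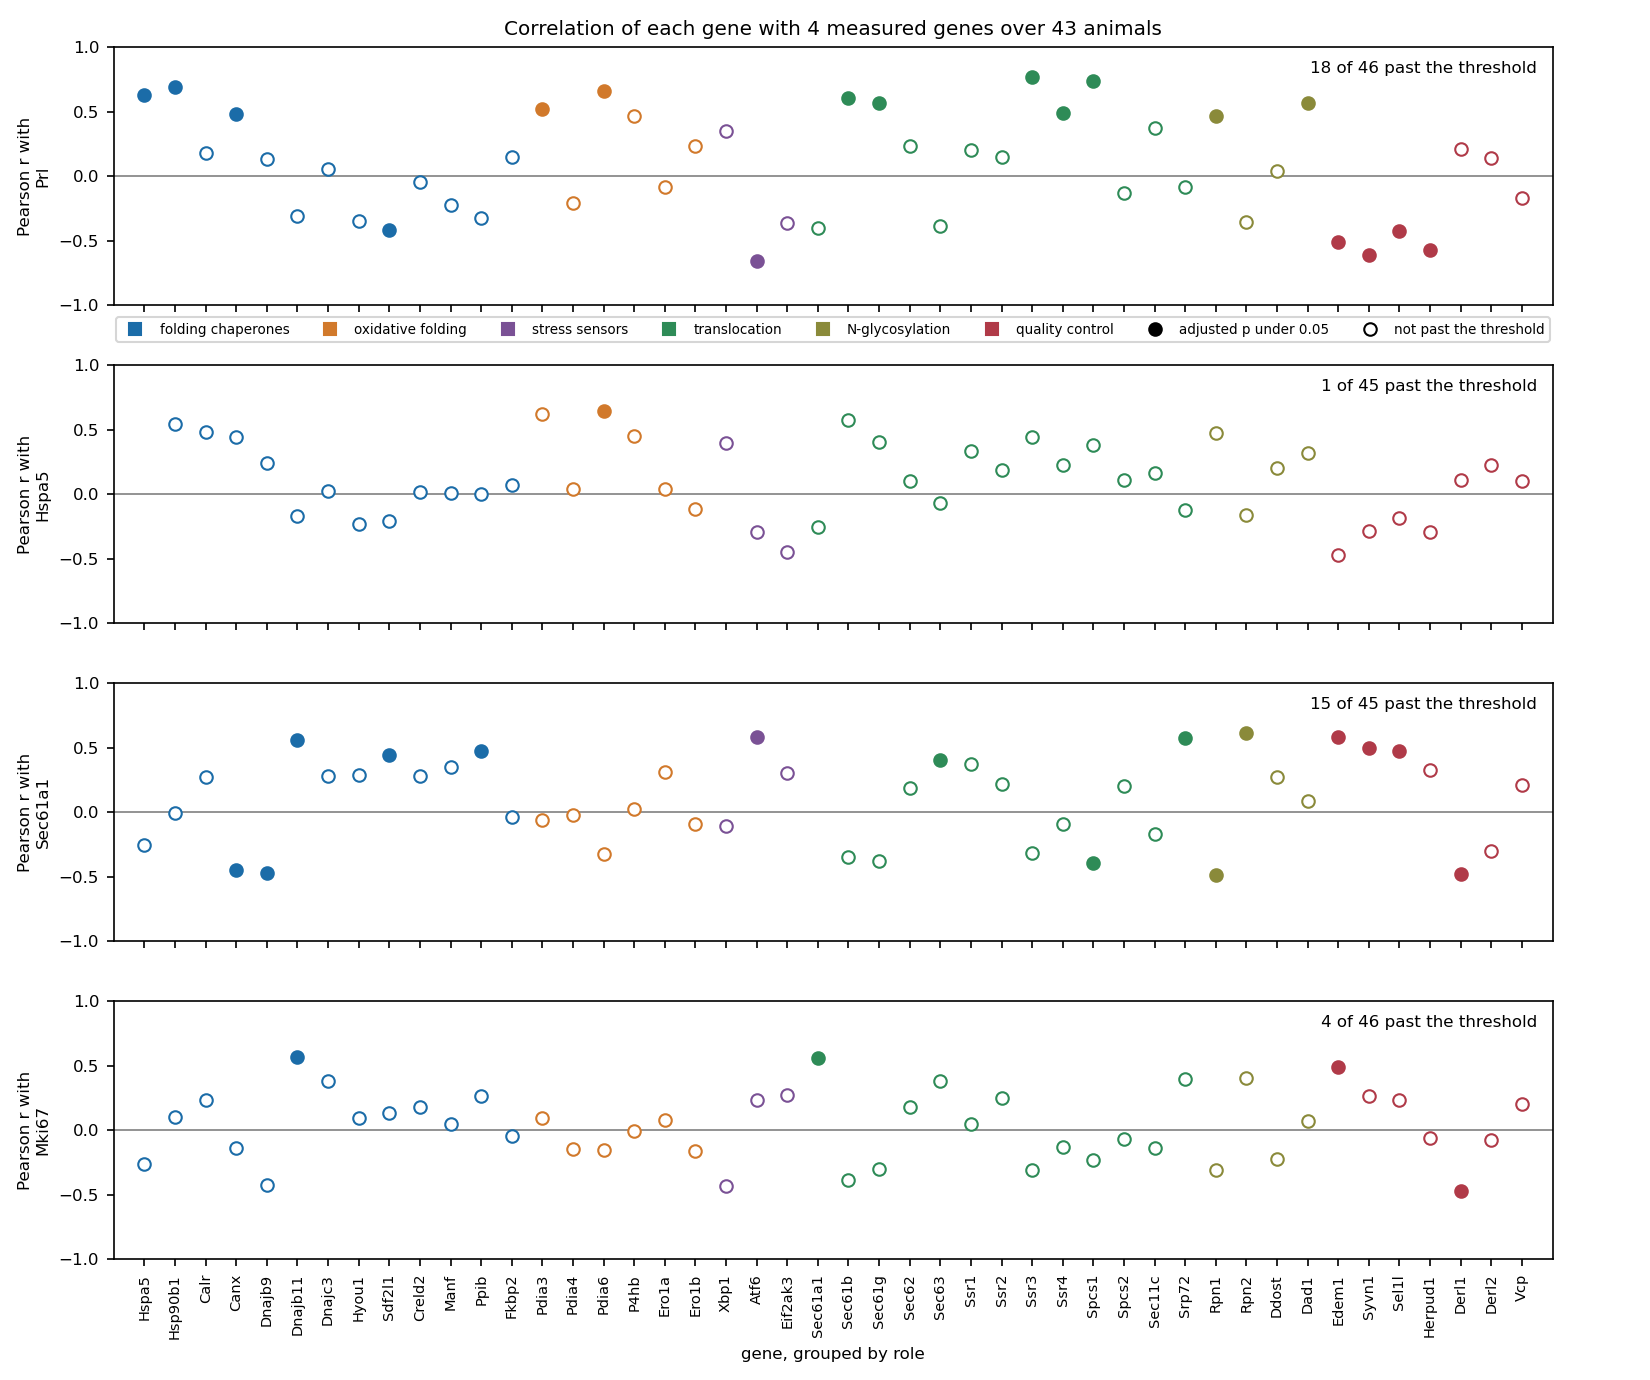
Pearson r (y axes) of each ER gene (x axis, coloured by role) with Prl, Hspa5, Sec61a1 and Mki67 over 43 animals, with filled points for genes past the threshold of adjusted p 0.05 by limma. Against Prl 18 of 46 were past it, against Hspa5 1 of 45, against Sec61a1 15 of 45 and against Mki67 4 of 46. Quality control genes past the threshold lay below 0 for Prl. After quantile normalization all but Edem1 were above 0, but Prl then had the same value on 28 arrays. For Sec61a1 Edem1, Syvn1 and Sel1l lay above 0 and Derl1 below.

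The related genes were 120 other genes of folding, translocation, glycosylation, degradation and the unfolded protein response, of which 112 were on the array and 107 passed and were tested. Against Prl 16 were higher and 15 lower, where 7.82% and 11.3% of all probe sets were. Srp14, of the signal recognition particle, had r = 0.681, Serp1, which stabilises membrane proteins in the ER, 0.689, and Tmem258, an oligosaccharyltransferase subunit, 0.622, whereas Txndc11, a thioredoxin domain protein, had -0.631 (adjusted p from 0.000142 to 0.00110 by limma). Of the 17 tested genes listed as related translocation genes, 6 were higher and 1 lower, and the list and the 6 include Tmem258. Of 23 related quality control genes 2 were higher and 4 lower. Against Hspa5 none of the 107 was called by limma, where 0.309% of all probe sets were higher and 0.238% lower. At such shares a count of 0 does not set the related genes apart. An unadjusted p under 0.05 was found for 14 of them, and the share of all probe sets with one was not counted. The smallest adjusted p was that of Serp1 (0.0600 by limma, r = 0.532). Against Sec61a1 31 were higher and 6 lower, where 12.4% and 11.3% of all probe sets were, led by Fkbp10, a prolyl isomerase (r = 0.743), Mogs, which trims the first glucose of N-linked sugars (0.728), Man1b1, an ER mannosidase (0.664), and Dnajc1, a co-chaperone (0.645). Against Mki67 6 were higher and 2 lower, where 2.98% and 3.12% of all probe sets were, with r = 0.708 for Rcn1, a calcium-binding ER protein, -0.594 for Tusc3, an oligosaccharyltransferase subunit, 0.548 for Fkbp10 and 0.519 for Dnajc1. The 4 comparisons share the same arrays. For the related genes they were made over all animals in the unaltered processing only. Without animals 38 and 43 the ER genes called against Prl, Sec61a1 and Mki67 fell to 3, 4 and 0. Whether the counts and r of the related genes rest on these animals, or on how arrays were scaled, was not tested.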

How the data were processed

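The files hold 1 intensity for each probe set on each array, scaled by the authors (software: not given in the sources used here). After removal of 2% at each end, the mean intensity lay between 500.17 and 500.22 on every array. Control probe sets (57 of 31099) were left out, 16 was added and log2 taken. A gene was named where the platform annotation gave 1 symbol, and was represented by its brightest probe set. The genes, lists and tests were chosen with earlier results of these data known. Every ER gene is named, with full statistics for at most the 8 with the smallest adjusted p in each fit and at most 4 related genes. Slopes were fitted with limma 3.58.1 (R 4.3.3; lmFit, eBayes) over all probe sets that passed; correlations and 2-sided permutation tests (100000) used numpy 2.4.6. No p was adjusted over the ER genes alone. In a simulation of the Hspa5 fit (15521 probe sets), 99 of 100 slopes of 1 SD, 26 of 100 of 0.5 SD and 5 of 15321 of 0 were called. The slopes were added to independent noise with each probe set's own SD, whereas real probe sets can vary together. These rates therefore do not give the power of the real fit. Alternatives were other pseudocounts (1, 64), filters, scalings, probe set rules, ranks, the 3' to 5' differences of actin and GAPDH (array quality), a smooth trend over animal numbers or a step between animals 22 and 23 (placed from earlier results), and leaving out animals 43 and 38; leaving out both was added after seeing the data. The number of arrays limits the precision. Some promoter sites are not reported here.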

Additional observations from a re-analysis of the deposited data

How the results depend on the processing

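Counts of genes called are given in the order Hspa5, Sec61a1, Prl and Mki67, for which they were 1, 15, 18 and 4. The pseudocount changed none of these counts. The share of all probe sets called also changed with the setting. It is given above for some settings only, so these counts alone do not separate the ER genes from all probe sets. For wide spread and 2 classes the shares are given above for the unaltered processing only. Hspa5: 0 without the filter, with the trend over animal numbers and with the step between animals 22 and 23, 3 with a stricter filter and with ranks, 7 after quantile normalization, 14 with array medians subtracted, and 2 without animal 43, without animal 38 and without both. Sec61a1: 26 after quantile normalization, 7 without animal 43, 4 without animals 38 and 43, 9 with array quality, 3 with the trend, 1 with the step and 1 with the mean of all probe sets. Prl: 0 after quantile normalization, 2 without animal 43 and with array quality, 3 without animals 38 and 43, 6 with the trend and 7 with ranks. Mki67: 0 without animal 38, without animals 38 and 43, with the trend and with the step, 1 without the filter and 2 with the mean of all probe sets. The number of genes with wide spread, 0, became 1 after quantile normalization, without animal 43 and without animals 38 and 43 (Dnajc3 in each), and 2 with array quality (Dnajc3 and Sec62). The number with 2 classes, 0, became 1 with the step (Rpn1) and with the mean of all probe sets (Ero1b). The median r among the genes, 0.102, became 0.287 with array medians subtracted and lay between 0.0770 and 0.121 otherwise. Where a count was 0 by limma, 8 to 15 genes had an unadjusted p under 0.05, a threshold at which the share of all probe sets was not counted. The cause of these changes was not tested, except that filters change how many probe sets are tested.

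After quantile normalization r with Prl changed sign for Canx (-0.068), Sdf2l1 (0.307), Atf6 (0.147), Sec61b (-0.294), Sec61g (-0.482), Ssr3 (-0.188), Ssr4 (-0.044), Spcs1 (-0.198), Syvn1 (0.2998), Sel1l (0.179), Herpud1 (0.082), Rpn1 (-0.039) and Dad1 (-0.136), and with the mean of all probe sets r of Canx with Sec61a1 was 0.0078. The order of animal numbers has no stated meaning in the labels. The step leaves 22 and 21 animals on its sides, the sizes of the weight classes, but no label ties a number to a class, and whether they coincide was not tested. The r between the Sec61a1 levels of consecutive animals was 0.334. No paired analysis was possible because all animals formed 1 group.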
